A study of Homo sapiens with 6 samples.

Results

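The 50 genes described here encode laminin chains, integrin subunits and collagen chains. They were chosen from the 28491 genes of the count table by 3 conditions, a protein-coding type, a symbol of the LAMA, LAMB, LAMC, ITGA, ITGB or COL series, and a mean of at least 10 counts over the 6 libraries. Of 75 genes with such symbols, 25 fell under that mean. The 50 genes were 10 laminin, 19 integrin and 21 collagen genes, and 1 of the 19, ITGBL1, encodes a secreted integrin-beta-like protein rather than a receptor subunit. The mean count was the measured value that chose the genes. Just inside the limit lay ITGB7, with a mean of 10.2 counts, and ITGBL1, with 12.5, and just outside it lay ITGAM, with 7.83, and COL14A1, with 6.83. The choice also named LAMB3 beforehand for its lower level after RBM47 overexpression, so the values of LAMB3 are described without a test.

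The libraries were made from HCT116, a human colorectal carcinoma cell line, to ask what an excess of RBM47, an RNA-binding protein that acts on splicing and mRNA stability, changes in the transcriptome. Poly(A) RNA was sequenced 48 h after lipid transfection with a control plasmid (NC, 3 libraries) or with an RBM47 expression plasmid (RBM47-OE, 3 libraries). The labels name a pcDNA3.1-3xFlag-RBM47 plasmid and DMEM, whereas the methods give pIRES-hrGFP-1a and McCoy's 5A medium. Both groups are transiently transfected pools of 1 cell line, with no matrix-producing stromal cells named, and no source used here says that the libraries of a group came from separate cultures. The p-values therefore measure the spread between these libraries, which may be technical, and fewer cells of a kind and less RNA per cell cannot be told apart in bulk RNA.

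Laminins are trimers of an alpha, a beta and a gamma chain that self-assemble into the sheet of the basement membrane. Collagens are triple helices, of which collagen IV forms the network of that sheet and others form fibrils, beaded filaments or anchoring structures. Integrins are alpha-beta heterodimers that hold cells to both, and in epithelia the laminin-332 to integrin alpha6beta4 link anchors the basal surface through hemidesmosomes.

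LAMA3 and LAMB3 encode the alpha and the beta chain of laminin-332, and their upstream DNA is shown because these were the members whose 250 bases before a RefSeq transcription start held the AP-1 letters TGANTCA. The letters were searched on both strands, where they read the same, and none of the 4 motifs searched contains another. They are in capitals below, all sequences are 5′ to 3′ on the gene's own strand, and they are RefSeq's on GRCh38.p14.
LAMA3, chr18:23872770-23873019, plus strand, within the gene and upstream of an internal start: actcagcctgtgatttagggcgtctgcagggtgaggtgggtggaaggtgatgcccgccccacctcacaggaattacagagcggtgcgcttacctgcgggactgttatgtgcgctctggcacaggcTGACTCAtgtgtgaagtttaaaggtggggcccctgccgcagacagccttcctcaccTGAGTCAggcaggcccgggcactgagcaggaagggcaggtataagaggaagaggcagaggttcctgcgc
LAMB3, chr1:209651375-209651624, minus strand, within the gene and upstream of an internal start: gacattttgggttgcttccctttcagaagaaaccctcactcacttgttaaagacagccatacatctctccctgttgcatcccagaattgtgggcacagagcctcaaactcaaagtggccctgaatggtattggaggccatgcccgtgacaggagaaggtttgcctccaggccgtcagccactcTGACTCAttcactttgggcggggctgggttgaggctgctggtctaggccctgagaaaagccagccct
LAMB3, chr1:209652426-209652675, minus strand, upstream of the gene's outermost start: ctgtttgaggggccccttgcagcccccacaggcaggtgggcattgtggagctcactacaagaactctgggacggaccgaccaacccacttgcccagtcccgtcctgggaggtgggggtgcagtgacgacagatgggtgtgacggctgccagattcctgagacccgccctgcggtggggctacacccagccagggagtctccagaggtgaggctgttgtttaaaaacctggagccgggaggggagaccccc
The LAMA3 window held 2 matches, the inner LAMB3 window 1 and the outer LAMB3 window 0. LAMB3 had 1 more window, chr1:209652330-209652579, which overlaps the outer one, is not printed and held 0 matches. LAMA3 and LAMB3 were 2 of the 38 members with an entry, which together had 50 windows, 2 of them with a match, and 6.57% of all 35116 upstream windows of that length held one. These are matches of letters only.

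COL4A3 and COL4A4 are shown as well because they lie head to head, and their levels are compared further on. The genes are 170 bases apart in GENCODE 44, COL4A4 on the minus strand and COL4A3 on the plus strand, and the whole stretch between them is printed on the plus strand with the GC box GGGCGG, searched on both strands, in capitals.
COL4A4 to COL4A3, chr2:227164454-227164623: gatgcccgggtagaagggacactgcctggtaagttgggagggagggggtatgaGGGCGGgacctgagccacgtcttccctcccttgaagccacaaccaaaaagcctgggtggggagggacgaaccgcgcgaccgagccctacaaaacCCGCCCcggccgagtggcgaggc
It held 2 GC boxes, 1 read on each strand. A GC box was present in 29 of the 50 upstream windows of members and in 42.6% of all 35116 windows. The letters TATAAA were in 7 of the members' 50 windows and in 10.7% of all windows, and the E-box CANNTG was in 27 of 50 and in 61.8%.

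The libraries held from 26792409 to 35477983 gene counts each. RBM47 itself was at 1.91 to 2.33 FPKM (fragments per length of the gene and mapped fragments of the library) in NC and at 127.0 to 131.3 FPKM in RBM47-OE, a log2 fold change of 5.90 (SE 0.096, adjusted p = 1.7e-25), and all 6 libraries matched their labels. All 7 epithelial markers were at or above a mean of 1 FPKM, with summed levels of 1949 to 2124 FPKM in NC and 1807 to 2045 in RBM47-OE. Of 7 fibroblast markers 2 were in the table, and their summed level was 1.89 to 2.99 FPKM in NC and 1.48 to 2.03 in RBM47-OE. The 5 endothelial markers summed to at most 0.22 FPKM and the 6 leukocyte markers found, of 7, to at most 0.72. Across the 16233 genes with a value, Spearman's rho between exonic GC content and the log2 fold change was −0.635, so genes of low GC content were higher and genes of high GC content lower in RBM47-OE. Each fold change is therefore followed, where it matters, by its value in a second fit in which the trend of each library with GC content was taken out as an offset (GC offset).

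Levels were compared between genes as FPKM. Of the 50 genes, 25 had a mean of at least 1 FPKM in NC. ITGB4, the beta subunit of the hemidesmosome integrin, had the highest NC mean, 55.8 ± 4.54 FPKM (SD, n = 3), followed by its laminin-binding relative ITGA3 at 51.6 ± 2.84 (SD, n = 3), and these levels differed by less than their spread. ITGB1, the beta subunit shared by many receptors, stood next at 27.1 ± 1.02 (SD, n = 3). COL6A2 at 21.6 ± 1.11 and ITGA6 at 21.4 ± 0.693 (SD, n = 3) could not be placed in order. In RBM47-OE the mean of ITGB1 was 40.7 ± 4.29 FPKM and that of ITGA6 28.2 ± 3.85 (SD, n = 3), still under ITGB4 at 54.2 ± 4.99 and ITGA3 at 52.5 ± 1.78. The fibril collagen COL1A1 had 1.31 to 1.72 FPKM over all libraries, and the usual collagen IV pair was nearly silent, with 1 to 7 counts of COL4A1 and 0 to 4 of COL4A2 in each library, under the mean that chose the genes. ITGB6, which pairs with ITGAV in many epithelia, had 0 to 7 counts.

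**Figure D1:**
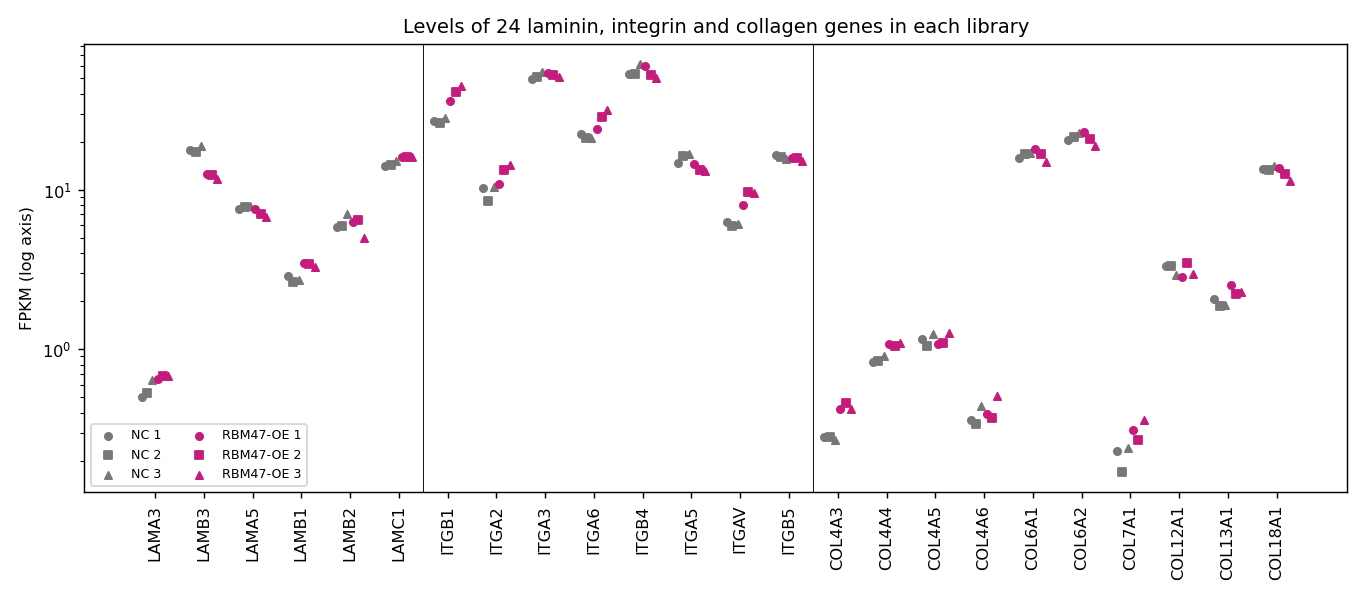
Levels of 24 laminin, integrin and collagen genes on a log FPKM axis, with 1 point per library, grey for NC, magenta for RBM47-OE and 1 shape per replicate number. ITGB4 and ITGA3 lay highest, LAMB3 lay lower in all 3 RBM47-OE libraries than in NC, and ITGB1, ITGAV and COL4A3 lay higher.

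Differences between the groups were tested on the counts with edgeR's quasi-likelihood test over 16260 genes, and p-values were adjusted over all of them by the Benjamini-Hochberg method. Of the 50 genes, 49 were tested, and ITGB7, the partner of ITGAE, was too low. At an adjusted p-value under 0.05, 9 genes were higher in RBM47-OE, or 18.4%, where 19.1% of all tested genes were, and 4 were lower, or 8.16%, where 16.9% of all were. The share of higher genes was thus near that of all genes. LAMB3 is among the 4, and because it was named for its lower level, its place in the counts of lower genes was known beforehand. The median log2 fold change of the 49 genes was 0.04, where that of all tested genes lay between −0.01 and 0.01. With the GC offset, 6 of the 49 genes were higher, where 975 of the 16260 tested genes were (6%). Lower were 2 of the 49, where 1375 of the 16260 were (8.46%). Of these, 5 of the 9 higher genes and 1 of the 4 lower ones were called in both fits. The thresholds that the study states, an unadjusted p-value under 0.01 and a change of over 1.5-fold, left 1 higher gene, COL6A3 (1.51% of all genes), and 1 lower gene, LAMB3 (0.873% of all genes). For 11 members the lowest of the 3 RBM47-OE libraries exceeded the highest of the 3 NC libraries, which was 22.4% against 23.2% of all genes, and for 5 the highest was below the lowest of NC, 10.2% against 23.4% of all genes.

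**Figure D2:**
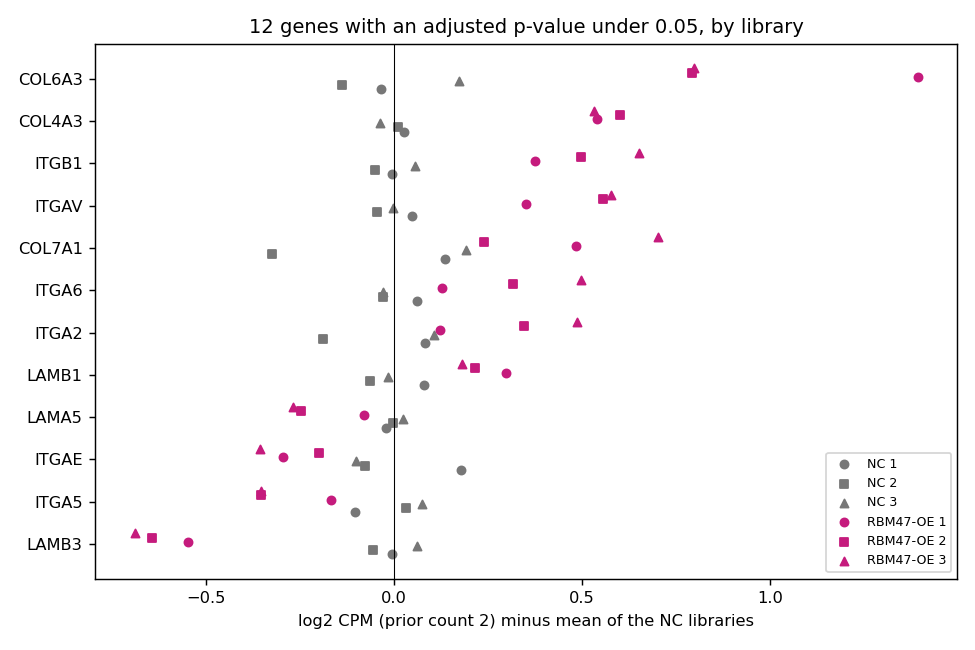
Of the 13 genes with an adjusted p-value under 0.05, 12 are drawn on the horizontal axis as log2 CPM (prior count 2) minus the mean of the NC libraries, with 1 point per library, grey for NC and magenta for RBM47-OE. The groups did not overlap for any of the 12. RBM47-OE replicate 1 lay nearest to NC for ITGA6, ITGA2, LAMA5, ITGA5, ITGB1, ITGAV and LAMB3, and replicate 2 or 3 for the others drawn.

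Of the chains of laminin-332, LAMB3 was lower in RBM47-OE and LAMA3 did not pass the test. LAMB3 (ENSG00000196878.15) lies on the minus strand of chromosome 1 from 209614870 to 209652425, and its normalised level was 96.4, 93.2 and 101.0 CPM (counts scaled to library size after TMM) in the NC libraries, replicates 1 to 3, against 66.2, 62.0 and 60.0 CPM in the RBM47-OE libraries, in the same order as throughout. Every RBM47-OE library was below every NC library. The means were 96.9 ± 3.91 and 62.7 ± 3.19 CPM (SD, n = 3), a level 1.54-fold lower (log2 fold change −0.63, SE 0.072), and with the GC offset the log2 fold change was −0.44. LAMA3, the alpha chain, had 8.45, 8.88 and 10.7 CPM in NC and 10.6, 10.6 and 10.9 in RBM47-OE, so that the groups overlapped (log2 fold change 0.20, SE 0.12, adjusted p = 0.21).

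A ratio of counts within a library is free of scaling between libraries, and LAMC1, the gamma chain of most laminins, served as the reference. The log2 count ratio of LAMB3 to LAMC1 was −0.52, −0.58 and −0.56 for NC, against −1.20, −1.24 and −1.33 for RBM47-OE. Per length, LAMB3 was at 1.22 to 1.27 times the FPKM of LAMC1 in NC and at 0.724 to 0.789 times in RBM47-OE. The ratio thus passed from above 1 to below 1 in all libraries. The exons of LAMB3 had a GC content of 58.7% and those of LAMC1 of 48.2%, and with the GC offset the log2 fold changes of LAMB3 and LAMC1 were −0.44 and 0.09. The log2 count ratio of LAMA5 to LAMC1 was −0.18 to −0.12 in NC and −0.50 to −0.33 in RBM47-OE, also without overlap. The exons of LAMA5 had a GC content of 65.7%. With the GC offset the log2 fold changes of LAMA5 and LAMC1 were 0.02 and 0.09, so this shift was mostly gone there.

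Laminin-511, the main laminin of many epithelial basement membranes, is made of the LAMA5, LAMB1 and LAMC1 chains. LAMC1 was the most counted laminin gene, with 138.5, 139.1 and 148.6 CPM in NC and 152.6, 146.4 and 150.5 in RBM47-OE, and the groups overlapped (log2 fold change 0.08, SE 0.069, adjusted p = 0.41). LAMB1 had 62.7, 56.8 and 58.7 CPM in NC and 73.0, 68.9 and 67.3 in RBM47-OE and was higher in each, by a log2 fold change of 0.23 (SE 0.074, adjusted p = 0.015). Its value was 0.06 with the GC offset (adjusted p = 0.61), and the call was also lost without NC replicate 2 or NC replicate 3. LAMA5 had 126.7, 128.3 and 130.8 CPM in NC and 121.7, 108.3 and 106.7 in RBM47-OE, and it was lower by a log2 fold change of −0.20 (SE 0.072, adjusted p = 0.033), which turned to 0.02 with the GC offset (adjusted p = 0.83). The call on LAMA5 held without RBM47-OE replicate 1 and was lost when any of the other 5 libraries was left out. LAMB2, which replaces LAMB1 in laminin-521, was at 47.0 to 56.3 CPM in NC and 37.7 to 48.6 in RBM47-OE, with a log2 fold change of −0.17 (SE 0.093, adjusted p = 0.17).

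Of the 10 laminin genes 2 rose (20%, beside 19.1% of all genes) and 2 fell (20%, beside 16.9%), and their median log2 fold change was 0.06. With the GC offset 1 of the 10 was higher and 1 of the 10 lower, where 6% and 8.46% of all genes were. LAMB3, named beforehand for its lower level, is 1 of the 2 that fell and the 1 lower with the offset. LAMA2, the alpha chain of muscle and nerve laminins, lay above NC in every RBM47-OE library at 0.47 to 0.51 against 0.37 to 0.41 FPKM, with an adjusted p-value of 0.17. LAMA4 and LAMC3 had at most 0.31 and 1.71 FPKM in any library, and neither passed the test. The summed FPKM of the laminin genes was 63.0 to 67.5 in NC and 60.6 to 64.3 in RBM47-OE, so that the sums overlapped.

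**Figure D3:**
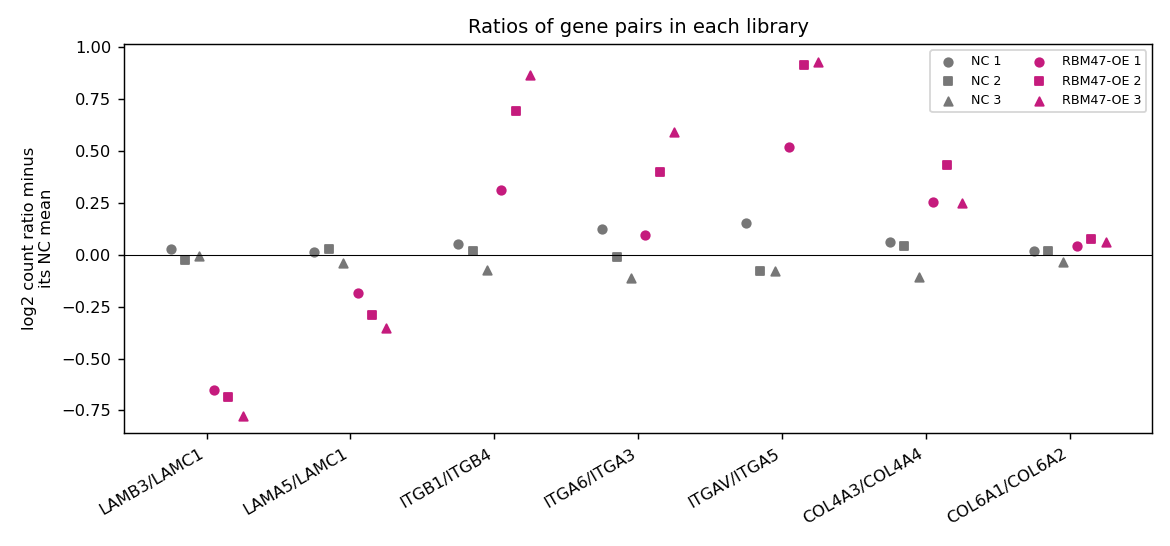
Log2 count ratio of gene pairs in each library minus the mean of the NC libraries, with grey points for NC and magenta for RBM47-OE. The ratios of LAMB3 and of LAMA5 to LAMC1 lay below NC in all 3 RBM47-OE libraries. ITGB1 to ITGB4, ITGAV to ITGA5 and COL4A3 to COL4A4 lay above, and ITGA6 to ITGA3 overlapped. COL6A1 to COL6A2 lay above too, though by a mean of only 0.06.

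Among the integrins, ITGB1 had the smallest adjusted p-value. ITGB1 (ENSG00000150093.20, chromosome 10, minus strand, 32887273 to 33005792) pairs with most alpha subunits for laminin, collagen and fibronectin. It had 456.6, 442.4 and 476.6 CPM in NC against 594.3, 646.4 and 720.2 CPM in RBM47-OE, with no overlap. The means were 458.5 ± 17.2 and 653.6 ± 63.3 CPM (SD, n = 3), a log2 fold change of 0.51 (SE 0.077, adjusted p = 4.9e-05). With the GC offset ITGB1 remained higher, by 0.28 (adjusted p = 0.0037). Its call held under 22 of the 23 other settings tried and was lost with the GC offset when NC replicate 2 was left out (log2 fold change 0.26, adjusted p = 0.054).

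The laminin receptors other than ITGB1 showed smaller values. ITGA6, which pairs with ITGB4 or ITGB1, had 173.2, 162.7 and 162.7 CPM in NC and 181.3, 206.9 and 234.4 in RBM47-OE and was higher by a log2 fold change of 0.32 (SE 0.080, adjusted p = 0.0030). Replicate 1 of RBM47-OE lay close to NC and replicate 3 farthest. The offset for GC content left 0.11 (adjusted p = 0.25). ITGB4 had 419.6, 416.5 and 478.4 CPM in NC and 456.7, 381.1 and 377.1 in RBM47-OE, overlapping, with a log2 fold change of −0.11 (SE 0.081, adjusted p = 0.29) and of 0.10 with the GC offset (adjusted p = 0.30). Without RBM47-OE replicate 1 it was lower, by −0.20 (adjusted p = 0.015). ITGA3, the alpha3 subunit, was level within its spread, at 561.8 to 621.4 CPM in NC and 549.9 to 600.2 in RBM47-OE (log2 fold change −0.05, SE 0.073, adjusted p = 0.65). ITGA7, at 1.14 to 1.36 FPKM in NC and 0.86 to 1.22 in RBM47-OE, overlapped too (adjusted p = 0.074).

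The beta subunits shifted against each other within libraries. The log2 count ratio of ITGB1 to ITGB4 was 0.12, 0.09 and −0.01 in NC and 0.38, 0.76 and 0.93 in RBM47-OE. All 3 RBM47-OE values were above all 3 NC values. The exons of ITGB1 had a GC content of 41.8% and those of ITGB4 of 64.0%. With the GC offset the log2 fold changes of ITGB1 and ITGB4 were 0.28 and 0.10, so this shift was much smaller there. The ratio of ITGA6 to ITGA3 ran from −1.93 to −1.70 in NC and from −1.73 to −1.23 in RBM47-OE, which overlapped. An exact permutation test of 3 against 3 libraries cannot go below p = 0.1, so no p-value is attached to the ratios.

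The collagen receptor ITGA2 had 94.2, 78.01 and 95.7 CPM in NC and 96.7, 112.9 and 124.7 in RBM47-OE. Its highest NC library and lowest RBM47-OE library lay next to each other, and the log2 fold change was 0.32 (SE 0.088, adjusted p = 0.0059). It was 0.04 with the GC offset (adjusted p = 0.77), and the call without the offset was lost without NC replicate 2 or RBM47-OE replicate 3. ITGA1 and ITGA10, its low relatives, had 30 to 56 and 16 to 29 counts and did not pass the test. ITGA1 shares 2.69% of its exonic bases with PELO, a gene of 1495 counts on average.

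Among the integrins that bind fibronectin or vitronectin, ITGAV and ITGA5 moved in opposite directions. ITGAV had 60.2, 56.4 and 58.1 CPM in NC and 74.2, 85.6 and 86.8 in RBM47-OE, a log2 fold change of 0.50 (SE 0.076, adjusted p = 5.3e-05). It was 0.14 with the GC offset (adjusted p = 0.086), and its exons had the lowest GC content of the 50 genes, 36.7%. ITGA5, the fibronectin receptor subunit, had 126.4, 138.8 and 143.0 CPM in NC and 121.0, 106.2 and 106.4 in RBM47-OE, a log2 fold change of −0.29 (SE 0.075, adjusted p = 0.0037), and −0.13 with the GC offset (adjusted p = 0.15). The log2 count ratio of ITGAV to ITGA5 was at most −1.07 in NC and at least −0.71 in RBM47-OE, so that the groups lay apart. ITGB5, a partner of ITGAV, was at 118.1 to 124.7 CPM in NC and 108.6 to 116.0 in RBM47-OE. Those groups did not overlap, but the log2 fold change of −0.11 (SE 0.069) did not pass the test (adjusted p = 0.20). ITGA2B, ITGB3 and ITGB8 had at most 0.29 FPKM in any library and none passed the test.

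ITGAE, the subunit that with ITGB7 binds E-cadherin, had 18.1, 15.2 and 14.9 CPM in NC and 13.03, 13.9 and 12.5 in RBM47-OE, a log2 fold change of −0.29 (SE 0.11, adjusted p = 0.039). It was −0.16 with the GC offset (adjusted p = 0.31), and the call was lost without NC replicate 1, NC replicate 2 or RBM47-OE replicate 3. Its exons share 6.47% of their bases with HASPIN on the opposite strand, which had 696 counts on average. ITGB7 had 6, 7 and 12 counts in NC and 22, 8 and 6 in RBM47-OE, and 42.3% of its exonic bases lie opposite ZNF740. ITGA9 and ITGAX, at most 0.23 FPKM each, did not pass the test, nor did ITGBL1 with 5 to 21 counts. Among the 18 integrin genes tested 4 rose (22.2%, beside 19.1% of all genes) and 2 fell (11.1%, beside 16.9%), and their median log2 fold change was 0.11. With the GC offset 1 of the 18 was higher and 0 lower, where 6% and 8.46% of all genes were. At an unadjusted p-value under 0.05 in edgeR without the offset, 4 were higher and 3 lower. DESeq2 called 4 higher and 2 lower. For the unadjusted threshold and for DESeq2 no share of all genes is given, so these counts cannot be set against one. The summed FPKM of the 19 integrin genes was 202.7 to 218.4 in NC and 227.6 to 233.1 in RBM47-OE, without overlap. Such a sum rests on the most abundant genes and carries no GC offset, so it does not describe the integrin genes one by one. Between the group means ITGB1 went from 27.1 to 40.7 FPKM and ITGA6 from 21.4 to 28.2. ITGB4 went from 55.8 to 54.2 and ITGA3 from 51.6 to 52.5.

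**Figure D4:**
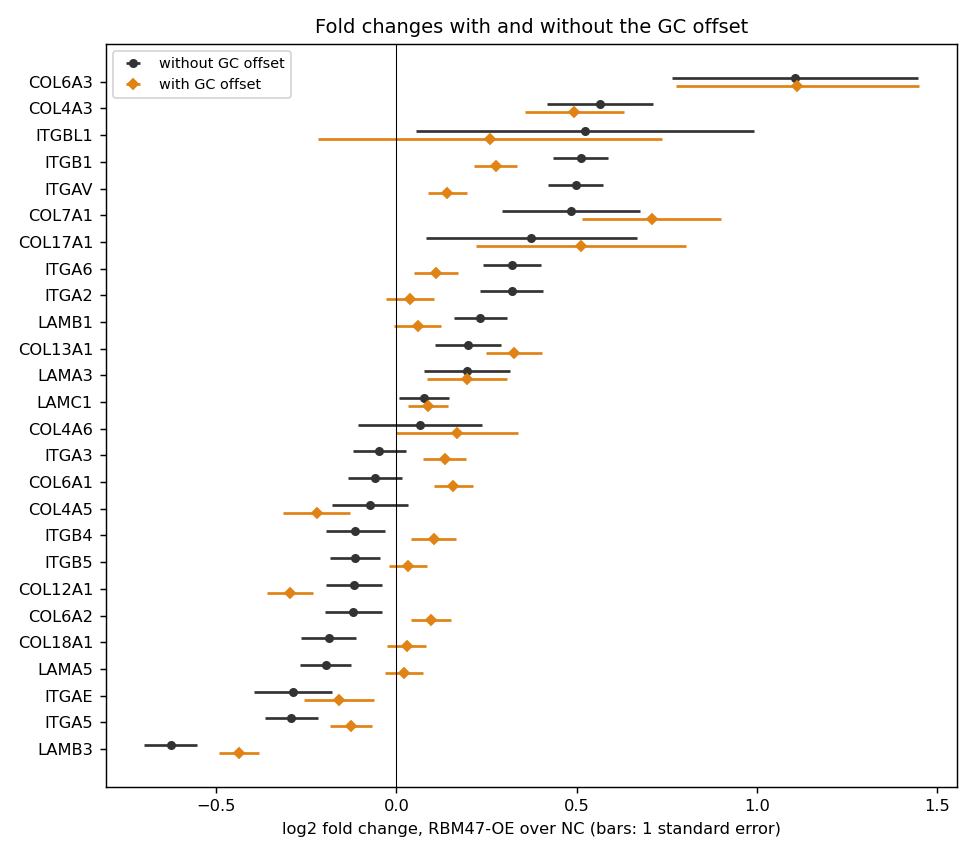
Log2 fold change of RBM47-OE over NC for 26 genes, black without and orange with the GC offset, with bars of 1 standard error. Several genes, among them ITGB1, LAMB3, COL4A3, COL6A3, COL7A1, ITGAV, ITGA5 and ITGA6, lay on the same side of 0 in both fits by more than their bars. The values of ITGA2 and LAMA5 came to lie near 0 with the offset.

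Among the collagens, the head-to-head pair COL4A3 and COL4A4 was described together. With COL4A5 they form the collagen IV network best known from the kidney glomerulus. COL4A3 (ENSG00000169031.21, chromosome 2, plus strand, 227164624 to 227314792) had 4.03, 3.99 and 3.86 CPM in NC against 5.79, 6.04 and 5.76 in RBM47-OE. It was 1.48-fold higher, with a log2 fold change of 0.57 (SE 0.15, adjusted p = 0.0039) and of 0.49 with the GC offset (adjusted p = 0.019). The counts were 106 to 138 in NC and 167 to 194 in RBM47-OE. COL4A4 had 11.4, 11.5 and 12.3 CPM in NC and 14.3, 13.2 and 14.3 in RBM47-OE. All its RBM47-OE libraries were above all NC libraries, but its log2 fold change of 0.25 (SE 0.11) did not pass the test (adjusted p = 0.064, and 0.057 with the GC offset). The log2 count ratio of COL4A3 to COL4A4 was −1.501, −1.52 and −1.67 in NC and −1.31, −1.13 and −1.31 in RBM47-OE, above NC in every library. Of the exonic bases of COL4A3, 6.82% lie opposite MFF-DT, a noncoding gene of 33.7 counts on average. At 0.27 to 0.46 FPKM, the levels of COL4A3 were low in both groups, and limma on log2(FPKM + 1) and on log2(FPKM + 0.1) did not call it. Its call with the GC offset was lost without any of the NC libraries (adjusted p = 0.059, 0.072 and 0.060 without replicates 1, 2 and 3).

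The X-linked head-to-head pair did not follow. COL4A5, the most abundant collagen IV chain here, had 1.05 to 1.24 FPKM in NC and 1.07 to 1.26 in RBM47-OE (log2 fold change −0.07, SE 0.11, adjusted p = 0.63). COL4A6, whose RefSeq start lies 379 bases from that of COL4A5, had 0.34 to 0.44 and 0.37 to 0.51 FPKM (log2 fold change 0.07, SE 0.17, adjusted p = 0.80).

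Collagen VI forms beaded filaments from the COL6A1, COL6A2 and COL6A3 chains. COL6A1 and COL6A2 were the most abundant collagen genes, at 15.02 to 18.1 and 18.8 to 22.9 FPKM over all libraries, with log2 fold changes of −0.06 (SE 0.076, adjusted p = 0.58) and −0.12 (SE 0.078, adjusted p = 0.25). With the GC offset these were 0.16 (adjusted p = 0.054) and 0.10 (adjusted p = 0.28). Without RBM47-OE replicate 1 COL6A2 was lower, by −0.21 (adjusted p = 0.0088), and with the offset COL6A1 was higher without RBM47-OE replicate 3, by 0.19 (adjusted p = 0.034). COL6A3 (ENSG00000163359.17, chromosome 2, minus strand, 237324003 to 237414328), the chain that completes the trimer, had 14, 17 and 18 counts in NC and 51, 32 and 29 counts in RBM47-OE. It was 2.15-fold higher, a log2 fold change of 1.11 (SE 0.34, adjusted p = 0.013, and 0.029 with the GC offset). This was the largest log2 fold change of the 49 genes but rested on 0.02 to 0.06 FPKM, and the call was lost without NC replicate 2 or RBM47-OE replicate 1. In the fit with the GC offset it was lost without any of the NC libraries and without RBM47-OE replicate 1.

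COL7A1 and COL17A1, collagens of the epithelial junction, were low, at NC means of 0.213 and 0.153 FPKM, whereas COL18A1 had 13.6. COL7A1, the anchoring fibril collagen that binds laminin-332, had 79, 75 and 90 counts in NC and 127, 104 and 130 in RBM47-OE (3.01, 2.17 and 3.13 against 3.85, 3.24 and 4.48 CPM). Its log2 fold change was 0.49 (SE 0.19, adjusted p = 0.049), and 0.71 with the GC offset (adjusted p = 0.016). The first call was lost when any single library except RBM47-OE replicate 2 was left out, and also with DESeq2 and with limma. The call with the GC offset was lost without NC replicate 2 (adjusted p = 0.12) or RBM47-OE replicate 3 (adjusted p = 0.089). COL17A1, the transmembrane collagen of hemidesmosomes, had 24, 30 and 56 counts in NC and 55, 50 and 46 in RBM47-OE, and NC replicate 3 had the most of all 6 (log2 fold change 0.37, SE 0.29, adjusted p = 0.34). Without that library the log2 fold change was 0.85 (adjusted p = 0.048), and 0.98 with the GC offset (adjusted p = 0.049). COL18A1, the basement membrane collagen that is the source of endostatin, had 133.0, 130.2 and 138.2 CPM in NC and 131.2, 114.4 and 106.7 in RBM47-OE (log2 fold change −0.19, SE 0.076, adjusted p = 0.056, and 0.03 with the GC offset). Without RBM47-OE replicate 1 it was −0.27 (adjusted p = 8.2e-04). Of its exonic bases, 18.5% lie opposite SLC19A1.

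COL13A1, a transmembrane collagen, and COL12A1, which associates with fibrils, were called with the GC offset alone, and were singled out after their values were seen. COL13A1 had 27.9, 24.96 and 25.1 CPM in NC against 33.0, 27.4 and 29.0 in RBM47-OE, with a log2 fold change of 0.20 (adjusted p = 0.094) and of 0.33 with the GC offset (adjusted p = 0.0064). COL12A1 had 73.1, 72.2 and 64.0 CPM in NC against 60.5, 70.1 and 62.3 in RBM47-OE, with −0.12 (adjusted p = 0.26) and −0.29 with the GC offset (adjusted p = 0.0038). The exons of COL12A1 had the lowest GC content of the collagen genes, 43.2%. None of the 5 fibrillar collagens, COL1A1, COL5A2, COL5A3, COL11A2 and COL27A1, passed the test, with log2 fold changes from −0.38 to 0.11. Nor did COL9A2, COL9A3, COL16A1 or COL26A1. Of the 21 collagen genes, 3 were higher (14.3%, beside 19.1% of all genes) and 0 lower (beside 16.9%), and 5 were higher and 1 lower at an unadjusted p-value under 0.05 in edgeR. DESeq2 called 2 higher and 0 lower, and as for the integrins the unadjusted and DESeq2 counts have no share of all genes beside them. With the GC offset edgeR called 4 of the 21 higher and 1 of the 21 lower, where 6% and 8.46% of all genes were called. The median log2 fold change of the collagen genes was −0.07, and 0.12 with the GC offset, so that it changed sign. Their summed FPKM was 70.8 to 74.5 in NC and 66.2 to 76.3 in RBM47-OE, which overlapped.

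The fold changes of the family followed GC content as those of other genes did. Over the 49 genes Spearman's rho between exonic GC content and the log2 fold change was −0.64, over the 19 with a mean of at least 1000 counts it was −0.747, and over all genes −0.635. These are descriptions across genes, which share the 6 libraries and are not independent replicates. With the GC offset the values were −0.0991, −0.247 and −0.0417. Exonic GC content had a median of 43.2% in the 9 higher genes, 57.1% in the 4 lower genes and 54.5% in the 36 without a call.

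**Figure D5:**
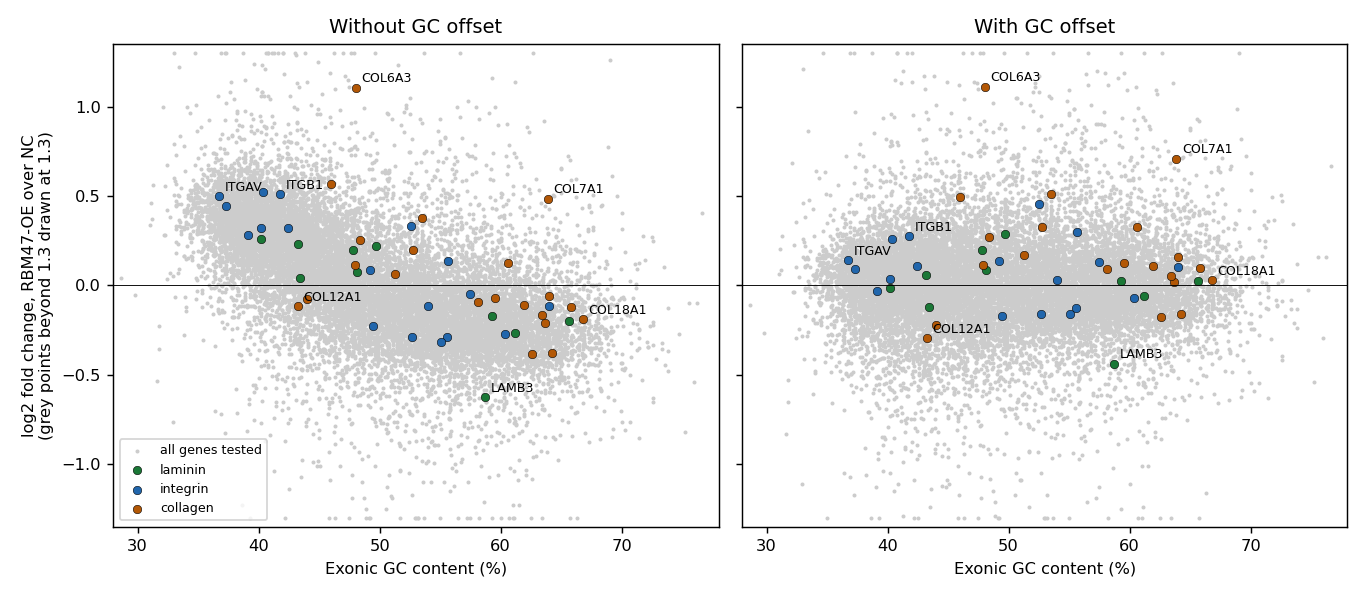
Log2 fold change of RBM47-OE over NC against exonic GC content (%), left without and right with the GC offset, with all tested genes in grey and laminin, integrin and collagen genes in colour. The coloured points fell from left to right with the grey ones (Spearman's rho −0.64 over 49 genes) and lay level with the offset (−0.0991), where COL6A3 and COL7A1 stayed high and LAMB3 low.

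Other genes of adhesion and matrix were counted from 6 lists of 139 genes, 115 of them tested. Of these 115, 15 rose, where 3100 of the 16260 tested genes did (19.1%), and 29 fell, where 2740 of the 16260 did (16.9%). In proportion, fewer of the listed genes rose and more fell than of all genes, in lists chosen with earlier results known. Their median log2 fold change was −0.10. With the GC offset 10 of the 115 were higher and 10 of the 115 lower, where 6% and 8.46% of all genes were. Of the 9 partners of the basement membrane, 0 passed the test in either direction without the GC offset, and 1 was higher with it. This was HSPG2, the proteoglycan perlecan, named after its values were seen, with a log2 fold change of 0.0045 (adjusted p = 0.98) and of 0.22 with the offset (adjusted p = 0.043). At an unadjusted p-value under 0.05 in edgeR, 0 of the 9 were higher and 1 lower, and DESeq2 called 0, here too without shares of all genes.

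Genes that make and export collagen gave 4 higher and 8 lower of 27, where 19.1% and 16.9% of all genes were. In the fit with the GC offset 3 of the 27 were higher and 1 lower, where 6% and 8.46% of all genes were. P4HA1, a catalytic subunit of collagen prolyl 4-hydroxylase, had 191.7, 186.9 and 188.5 CPM in NC and 257.7, 266.1 and 282.2 in RBM47-OE, a log2 fold change of 0.51 (adjusted p = 2.7e-05). MIA2, an export factor of the endoplasmic reticulum, was higher by 0.56, and with the GC offset both stayed higher, P4HA1 by 0.23 and MIA2 by 0.27 (adjusted p = 0.0078 and 0.018). COLGALT1, which adds galactose to collagen, was lower by a log2 fold change of −0.39 and of −0.21 with the offset (adjusted p = 0.016). SERPINH1, the collagen chaperone, was at 156.1 to 164.0 CPM in NC and 120.7 to 137.4 in RBM47-OE, lower by −0.33, but with the offset its value of −0.16 did not pass the test (adjusted p = 0.054).

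Integrin adaptors and focal adhesion genes gave 4 higher and 9 lower of 36, where 19.1% and 16.9% of all genes were. In the fit with the GC offset 2 of the 36 were higher and 5 lower, where 6% and 8.46% of all genes were. TNS4, a tensin that binds integrin beta tails, had 63.3, 58.0 and 62.1 CPM in NC and 40.7, 36.4 and 46.6 in RBM47-OE, a log2 fold change of −0.57 (adjusted p = 4.9e-05), and of −0.38 with the offset (adjusted p = 0.0029). PXN, the scaffold paxillin, was lower by −0.39, and by −0.20 with the offset (adjusted p = 0.034). The adaptor CRK was higher by 0.33, and by 0.24 with the offset (adjusted p = 0.0080). LIMS1, a partner of integrin-linked kinase, was higher by 0.33, and its 0.13 with the offset did not pass the test (adjusted p = 0.15).

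Of 8 partners of the hemidesmosome and the tetraspanins, 2 were higher and 3 lower, where 19.1% and 16.9% of all genes were. In the fit with the GC offset 0 of the 8 were higher and 2 lower, where 6% and 8.46% of all genes were. ERBIN, which binds ITGB4, and DST, the plakin BPAG1, were higher by log2 fold changes of 0.50 and 0.25, and with the offset these were 0.13 and −0.04 (adjusted p = 0.13 and 0.68). CD151, the tetraspanin bound to laminin-binding integrins, had 339.4, 342.3 and 342.7 CPM in NC and 283.6, 238.2 and 241.0 in RBM47-OE. It was lower by −0.43 (adjusted p = 1.8e-04), and by −0.21 with the offset (adjusted p = 0.015). Its relative CD81 was lower by −0.43, and by −0.21 with the offset (adjusted p = 0.023).

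Receptors for laminin and collagen other than integrins gave 2 higher and 3 lower of 12, where 19.1% and 16.9% of all genes were. In the fit with the GC offset 1 of the 12 was higher and 2 lower, where 6% and 8.46% of all genes were. SDC1, the matrix-binding proteoglycan syndecan-1, had 102.0, 105.5 and 103.0 CPM in NC and 76.9, 68.6 and 74.4 in RBM47-OE, a log2 fold change of −0.50 (adjusted p = 3.5e-05), and of −0.30 with the offset (adjusted p = 0.0016). RPSA, the ribosomal protein once known as a laminin receptor, was lower by −0.34, and by −0.50 with the offset, although its many pseudogenes make uniquely mapped counts uncertain. The sarcoglycans SGCE and SGCB were higher by 0.56 and 0.24, and neither passed the test with the offset (adjusted p = 0.19 and 0.49). Matrix proteases and their inhibitors gave 3 higher and 6 lower of 23, where 19.1% and 16.9% of all genes were. In the fit with the offset 3 of the 23 were higher and 0 lower, where 6% and 8.46% of all genes were. ADAM10, a sheddase, was higher by 0.58, and by 0.23 with the offset (adjusted p = 0.0063). ADAM9 was higher by 0.36, and its value with the offset was −0.0039. TIMP1, an inhibitor of metalloproteinases, and ADAM15 were lower by −0.35 and −0.31, and did not pass the test with the offset (adjusted p = 0.082 and 0.26).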

How the data were processed

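All 6 libraries were used, grouped by the treatment in the labels. Per the methods and the labels, the authors discarded reads with more than 2 N bases, used FASTX-Toolkit to clip adaptors and weak ends, dropped reads under 16 nt, aligned the rest to GRCh38 with HISAT2 allowing 4 mismatches, and counted uniquely mapped reads. The library kit is a directional NEBNext kit in the labels and a KC stranded kit in the methods. The counting tool, the annotation release and whether strand was used in counting are not given in the sources used here, and 26 of the 50 genes share exonic bases with another gene in GENCODE 44. The deposited counts are whole reads per gene without normalization, and the FPKM values deposited by the authors are divided by gene length and mapped fragments.

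The test was edgeR's quasi-likelihood test (4.0.16, R 4.3.3) of condition alone, after TMM scaling, over the 16260 genes that filterByExpr kept at 10 counts and a total of 15. The SE is |log2 fold change| over the root of F. Log2 CPM in the plots used a prior count of 2. Exonic GC content came from GENCODE 44, matched by identifier, and the GC offset was a loess curve (span 0.3) of each library's difference from the mean. Each of edgeR, with or without the offset, DESeq2 and limma was tested on simulated data. Alternatives were DESeq2 1.42.0 on the kept genes or on every gene, scaling by RLE factors or by library totals, no filter or one of 10 counts in each library, a replicate block, the GC offset with and without that block, limma 3.58.1 on log2(FPKM + 1) and log2(FPKM + 0.1) at a mean FPKM of at least 0.1, an adjusted p-value under 0.01, a mean count of at least 100, and each library left out in turn. The GC offset with each library left out was added after seeing the data.

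The genes described, the 6 lists of other genes and the tests were chosen with earlier results of these data known. Genes named were the chains of laminin-332 and laminin-511, the main epithelial integrin subunits, the collagen IV, VII, XVII and XVIII chains, the called genes with the largest changes, the 3 genes of each family with the highest FPKM, those nearest the mean count limit, and, in each list, up to 2 called genes in each direction with the largest changes. The rest are given by range, and a gene that this rule names is not reported here. Depth was 26792409 counts or more per library, and at 14 to 51 counts, as for COL6A3, counting error is large.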

Additional observations from a re-analysis of the deposited data

How the results depend on the processing

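Over 23 other settings, 6 of them (the GC offset with each library left out) chosen after seeing the data, LAMB3, chosen for its lower level, stayed lower in all 23, which is a description. The call on ITGB1 held in 22, COL4A3 in 18, ITGA6 and ITGAV in 15, ITGA2, ITGA5 and LAMB1 in 13, COL7A1 in 12, ITGAE in 7 and LAMA5 in 5. COL6A3 was tested in 20 of the 23 and its call held in 14. The count of 9 higher genes became 5 at an adjusted p-value under 0.01 and ran from 4 (without NC replicate 2) to 9 with a library left out. The count of 4 lower genes became 2 with the GC offset, the GC offset with replicate block, library totals, no filter and an adjusted p-value under 0.01, 1 with limma on either FPKM scale, and ran from 2 to 11 (without RBM47-OE replicate 1) with a library left out. Under the GC offset with a library left out, 1 to 6 were higher and 2 lower. At the study's thresholds the 1 higher gene became 0 with DESeq2 on all genes, with limma and at a mean count of at least 100, 2 with the GC offset, with and without replicate block, and with library totals, and 0 to 2 with a library left out. The 1 lower gene became 0 with the GC offset, with and without replicate block, library totals and limma. Apart from the GC offset at an adjusted p-value under 0.05, no share of all genes is given for these other settings. Their counts therefore cannot be set against all genes, and whether more genes were called there in general was not tested. The median log2 fold change of 0.0423 became −0.0645 at a mean count of at least 100, and ran from −0.0474 (RBM47-OE replicate 1 left out) to 0.051 with a library left out, with −0.0344 when that was NC replicate 2. The 29 lower genes of the other lists became 10 with the GC offset, with and without replicate block. The cause of these differences was not tested. LAMA5 turned to 0.0218 with the GC offset, to 0.0216 with replicate block as well, and, in the fit with the offset, to 0.017, 0.0183 and 0.0262 without NC replicates 1, 2 and 3 and to 0.0155, 0.0368 and 0.0122 without RBM47-OE replicates 1, 2 and 3. Under the GC offset with a library left out, ITGA2 turned to −0.0432 without NC replicate 2 and to −0.0115 without RBM47-OE replicate 3, LAMB1 to −0.0124 without RBM47-OE replicate 1 and COL6A1 to 0.186 without RBM47-OE replicate 3. With library totals in place of TMM the median of all genes moved to 0.062.

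No effect shared by same-numbered libraries was seen, as their deviations from their group means correlated at −0.0596, −0.0149 and −0.0159. Such values cannot tell whether the libraries were prepared in pairs. With the replicate block 9 genes were higher and 4 lower, here too without shares of all genes, and LAMA5 lost its call. Genes under about 100 counts, such as COL6A3 and COL17A1, are limited by depth, and those without a call are not shown to be level.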
